A study of Caenorhabditis elegans with 12 samples.

Results

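Molting and developmental timing in Caenorhabditis elegans are run by a small set of regulators, of which 10 were read here in aged adults. They were found in the deposited table by their gene names, and all 10 names matched, among 46726 genes. A larva sheds its cuticle at the end of each stage under the control of oscillating transcription factors of the epidermis. The heterochronic genes tell each cell which stage it is in, and microRNAs such as lin-4 and let-7 switch the stages by repressing them. Adult hermaphrodites no longer molt, although several of these genes also act in neurons and in the germline. Nuclear receptors nhr-23 and nhr-25, related to ROR and to Ftz-F1 of other animals, drive molting, with the Period-related lin-42 and the Blimp-1-type repressor blmp-1 setting its timing. The early fates need lin-14, lin-28 and hbl-1, and lin-46 acts against hbl-1 downstream of lin-28. The RNA-binding protein gene lin-41 and the zinc finger gene lin-29 act last, at the turn from larva to adult.

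The study compared mRNA of whole worms at day 7 of adulthood between N2, the laboratory wild type, and strain TG1660, which carries the tm2842 mutation in xpf-1, the gene of a DNA repair nuclease. There were 6 libraries per strain, each from at least 500 age-matched worms on plates of OP50 bacteria, with no other allele or treatment named. The labels speak of biological triplicates, so part of the spread between the 6 libraries of a strain may be technical, and p-values measure that spread alone. Total counts ran from 18407182 to 22817135 per library. The xpf-1 transcript stood at 63.9 to 81.1 CPM (counts scaled to the library total) in N2 and at 9.897 to 14.1 CPM in the mutant. The library titled N2 replicate 6 has a mutant genotype label, but its xpf-1 transcript, at 68.8 CPM, lay within the N2 range. It was therefore kept in N2, where its title and strain label put it. Replicate 1 of xpf-1 stood apart from the other mutant libraries in several genes, and values below that it moves most are also given without it.

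All 10 regulators had enough reads to be tested, and 6 of them differed between the strains. In the mutant nhr-25 and hbl-1 rose, while lin-41, nhr-23, lin-42 and lin-28 fell. The other members, blmp-1, lin-14, lin-46 and lin-29, did not pass the threshold. Calls are those of edgeR's quasi-likelihood test at a Benjamini-Hochberg adjusted p of 0.05 over all 14248 genes tested. Of these genes 59.7% were called, 30.1% higher and 29.6% lower, so 6 of 10 is close to the share of all genes. The libraries of the strains did not overlap for 5 of the 10, against 38.2% of all tested genes. Of these 5, 1 was higher and 4 were lower in the mutant, where 17.9% and 20.3% of all tested genes stood apart in those directions. The median log2 fold change of the members was -0.28 and that of all tested genes 0.03. In the authors' deposited table the same comparison passed for 5 of the 10, 1 higher and 4 lower, and hbl-1 did not pass there, with an adjusted p of 0.0579.

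**Figure D1:**
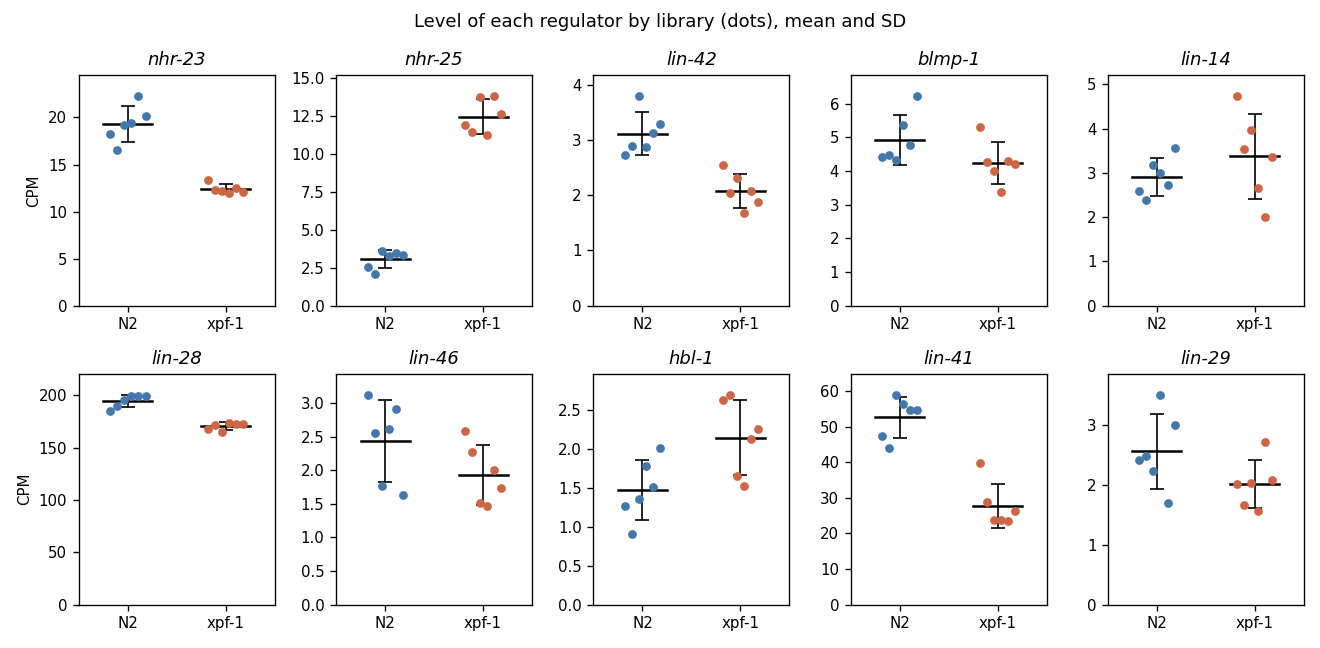
Level of each regulator in CPM in the 6 libraries of N2 and the 6 of xpf-1, with the vertical axis starting at 0 in every panel. Dots are libraries, the horizontal bars are group means and the whiskers 1 SD. The strains do not overlap for nhr-23, nhr-25, lin-42, lin-28 and lin-41, and overlap for the others.

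The nuclear receptors moved in opposite directions. In N2 the level of nhr-25 (WBGene00003623, chromosome X, 13008493 to 13013961, plus strand, WBcel235) was 2.09 CPM in the lowest library, 3.29 at the median and 3.59 in the highest. In the mutant these were 11.2, 12.3 and 13.8 CPM. Every mutant library thus lay far above every N2 library. The mean was 3.04 ± 0.591 CPM for N2 libraries and 12.4 ± 1.13 CPM for mutant ones (SD, n = 6 each). The log2 fold was 2.03 ± 0.12 (SE), a 4.07-fold rise, and its 95% interval ran from 1.78 to 2.27, at an edgeR adjusted p of 1.42e-15. A log2 fold of that size or above was found in 0.926% of the tested genes. The call held under all 24 alternatives in which the gene was tested, with log2 folds of 1.89 to 2.17.

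The molting receptor nhr-23 (WBGene00003622, chromosome I, 7214745 to 7221781, plus strand) was lower in the mutant. Its N2 libraries had 16.5 CPM at the lowest, 19.3 at the median and 22.3 at the highest, and its xpf-1 libraries had 12.02, 12.2 and 13.4 CPM. The strains did not overlap. The SD in the mutant was 4.08% of the mean, below the 6.19% that counting alone would give, so the narrow band there is no trait of the gene. Its log2 fold was -0.64 ± 0.08 (SE) (95% interval -0.80 to -0.47), at an edgeR adjusted p of 3.28e-08. Without xpf-1 replicate 1, the highest mutant library, it was -0.65 (adjusted p 6.63e-08).

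The balance between both receptors can be read within each library, where no scaling between libraries enters. Reads per base of nhr-25 over those of nhr-23 gave 0.184 ± 0.02502 in N2, from 0.148 to 0.219, and 1.18 ± 0.118 in the mutant, from 1.04 to 1.32 (SD, n = 6 each). The nhr-23 transcript was thus the more abundant of the pair per base in every N2 library, and nhr-25 in every mutant library. The ratio was chosen after the values of both genes were seen and was not tested. Its level depends on the gene length used: with exon lengths of a current annotation the mutant means were 4.84 CPM per kb for nhr-25 and 4.91 for nhr-23.

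**Figure D2:**
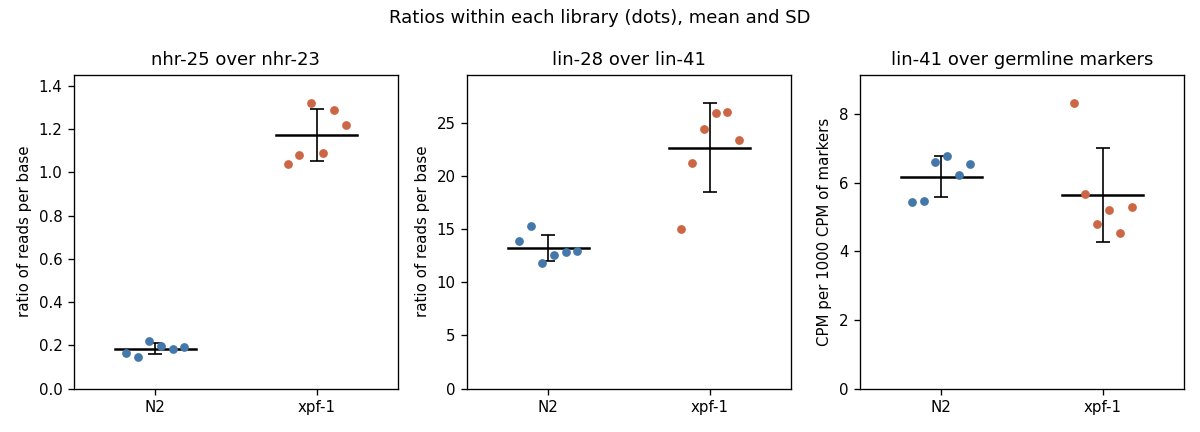
Ratios formed within each of the 6 N2 and 6 xpf-1 libraries: nhr-25 over nhr-23 and lin-28 over lin-41 in reads per base, and lin-41 in CPM per 1000 CPM of 20 summed germline and oocyte markers. Dots are libraries, with the mean and 1 SD; the first ratio does not overlap between strains (0.148 to 0.219 against 1.04 to 1.32), while the others do.

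The timer genes of the molting cycle were at lower levels. The Period-related lin-42 (WBGene00018572, chromosome II, 1233244 to 1244035, minus strand) had 2.72 CPM in its lowest N2 library, 3.002 at the median and 3.799 in the highest, and 1.67, 2.06 and 2.54 CPM in the mutant. The strains did not overlap, but a library held only 34 to 73 reads of the gene. Its log2 fold was -0.58 ± 0.17 (SE) (95% interval -0.92 to -0.24), at an edgeR adjusted p of 0.00339. In replicates 1 to 3 alone it did not pass (log2 fold -0.45, adjusted p 0.132). The deposited gene model of lin-42 ends at 1244035, while the current annotation of the same build runs to 1252359, so reads over the added part are not in these counts.

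The repressor gene blmp-1 (WBGene00003847, chromosome I, 10409359 to 10414707, plus strand) overlapped between the strains. It had 4.32 CPM in the lowest N2 library, 4.62 at the median and 6.23 in the highest, against 3.38, 4.24 and 5.31 CPM in the mutant. Its log2 fold of -0.22 ± 0.14 (SE) did not pass, and the 95% interval of -0.49 to 0.06 leaves room for a decrease but for little increase. It passed as lower after correction for a trend with gene length (log2 fold -0.35, edgeR adjusted p 0.0206).

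Among the early timing genes lin-28 (WBGene00003014, chromosome I, 8407802 to 8410804, minus strand) was by far the most abundant of the 10. It encodes an RNA-binding protein that blocks the maturation of let-7. Its N2 libraries had 185 CPM at the lowest, 198 at the median and 199.5 at the highest, and its xpf-1 libraries had 165, 172 and 174 CPM. The strains did not overlap, although the difference was small. With 3180 to 4257 reads per library, the SD was 3.12% of the mean in N2 and 2.21% in the mutant. Its log2 fold was -0.19 ± 0.04 (SE) (95% interval -0.28 to -0.10), at an edgeR adjusted p of 0.000275. The log2 fold was -0.12 with library totals only (adjusted p 0.032), and the gene did not pass in replicates 1 to 3 alone (adjusted p 0.0589).

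The gene for the nuclear protein LIN-14, the target of the microRNA lin-4 (lin-14, WBGene00003003, chromosome X, 11468500 to 11484267, plus strand), varied most within the mutant. Its xpf-1 libraries had 2.01 CPM at the lowest, 3.44 at the median and 4.74 at the highest, and the N2 libraries 2.38, 2.86 and 3.56 CPM. The mutant libraries reached both above and below the N2 range. The SD was 28.5% of the mean in the mutant, where counting alone would give 11.8%, and 14.8% in N2, where counting would give 13.1%. The log2 fold of 0.22 ± 0.18 (SE) did not pass (95% interval -0.14 to 0.58, edgeR adjusted p 0.291). Without xpf-1 replicate 1, the highest library, the log2 fold was 0.11 (adjusted p 0.628). In replicates 1 to 3 alone, which include that library, it passed as higher, at 0.59 (adjusted p 0.0336). The deposited length of lin-14 is 1923 bases, 52.5% of the 3665 exon bases of the current annotation, so the model that was counted is shorter than the current one.

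The Hunchback-like zinc finger gene hbl-1 (WBGene00001824, chromosome X, 5822277 to 5827691, plus strand) was the least abundant member. Its N2 libraries had 0.905 CPM at the lowest, 1.43 at the median and 2.01 at the highest, and its xpf-1 libraries had 1.52, 2.18 and 2.695 CPM. The strains overlapped, and a library held 16 to 58 reads. Its log2 fold was 0.54 ± 0.22 (SE) (95% interval 0.09 to 0.99), at an edgeR adjusted p of 0.0363. The call was lost without N2 replicate 1, 2, 3 or 5 (adjusted p 0.0714, 0.0872, 0.0602 and 0.0507) and without xpf-1 replicate 1, 2 or 6 (0.0803, 0.0899 and 0.056). It was also lost with the length trend removed (log2 fold 0.33, adjusted p 0.184) and in DESeq2 (0.0571).

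The gene lin-46 (WBGene00003031, chromosome V, 12968853 to 12970732, plus strand), which encodes a protein related to gephyrin, had 1.64, 2.58 and 3.13 CPM in N2 at the lowest, median and highest library. In the mutant it had 1.47, 1.88 and 2.58 CPM. The strains overlapped over most of their range. The log2 fold of -0.34 ± 0.20 (SE) did not pass (95% interval -0.75 to 0.08, edgeR adjusted p 0.156), and it passed under none of the 23 alternatives in which the gene was tested.

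The late timing gene lin-41 had the largest fall of the 10. It encodes a TRIM-NHL protein that binds mRNA, is a main target of let-7 in the larval epidermis and also holds back maturation of oocytes. The gene (WBGene00003026, chromosome I, 9334850 to 9342496, minus strand) had 43.9 CPM in its lowest N2 library, 54.7 at the median and 59.01 in the highest, and 23.5, 25.1 and 39.8 CPM in the mutant. The strains did not overlap, and the highest mutant library, replicate 1, stood well above the other mutant libraries. Its log2 fold was -0.93 ± 0.13 (SE), a 1.90-fold decrease (95% interval -1.20 to -0.65), at an edgeR adjusted p of 2.72e-05. A log2 fold at or below that value was found in 3.21% of the tested genes. Without xpf-1 replicate 1 it was -1.05 (adjusted p 3.22e-13).

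Germline and oocyte markers fell together with lin-41. Of 20 markers 19 were lower and 0 higher, with a median log2 fold of -0.86 beside 0.03 for all tested genes, and none of them was at 0. The log2 folds of those that fell ran from -0.31 for glh-1 to -1.38 for cpg-1. Their summed level was 8022 to 8940.1 CPM in N2 and 4599 to 5193 CPM in the mutant, all 20 markers included. The marker that did not pass, perm-2, stood at 947 ± 81.9 CPM in N2 and 958 ± 107 in the mutant. It thus made up a larger part of the mutant sum than of the N2 sum. These 3 markers were named after their values were seen. Set against that sum, lin-41 had 6.18 ± 0.588 CPM per 1000 CPM of markers in N2 and 5.63 ± 1.37 in the mutant, with overlapping ranges of 5.44 to 6.78 and 4.53 to 8.31 (SD, n = 6 each). The highest mutant value was that of replicate 1. Without it the mutant had 5.09 ± 0.446 (SD, n = 5), from 4.53 to 5.67, and 4 of the 5 libraries lay below the lowest N2 library. The same measure for lin-28 was 22.9 ± 1.12 in N2 and 34.7 ± 1.79 in the mutant, without overlap (21.3 to 24.01 against 32.9 to 37.9). For nhr-23 it was 2.26 ± 0.194 and 2.52 ± 0.155, with overlap. These ratios were formed after the values were seen and were not tested. They depend on the markers in the sum, and ratios without perm-2 were not formed. In whole worms, fewer cells of a type and less RNA per cell cannot be told apart, and the part of the germline in the change of lin-41 was not tested.

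The ratio of lin-28 to lin-41, both in reads per base, was 11.8 to 15.3 in N2. It was 21.3 to 26.1 in xpf-1 replicates 2 to 6 and 15 in replicate 1, which thus lay within the N2 range. In lin-41 alone, replicate 1 stood below every N2 library.

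The zinc finger gene lin-29 (WBGene00003015, chromosome II, 11917642 to 11935343, minus strand), whose product turns the larval epidermis adult, had 1.705, 2.45 and 3.51 CPM in N2 at the lowest, median and highest library. In the mutant it had 1.57, 2.02 and 2.72 CPM. The ranges overlapped, and the log2 fold of -0.35 ± 0.19 (SE) did not pass (95% interval -0.74 to 0.05, edgeR adjusted p 0.126). The abundant gene hmg-12 lies within its span on the other strand, with 42243 reads over the 12 libraries. Exons of the pair share 2 bases in the current annotation, but the release and strand setting used for the counts are not named. Whether reads of hmg-12 were counted for lin-29 was not tested. No other member overlaps a protein-coding gene in the deposited coordinates.

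**Figure D3:**
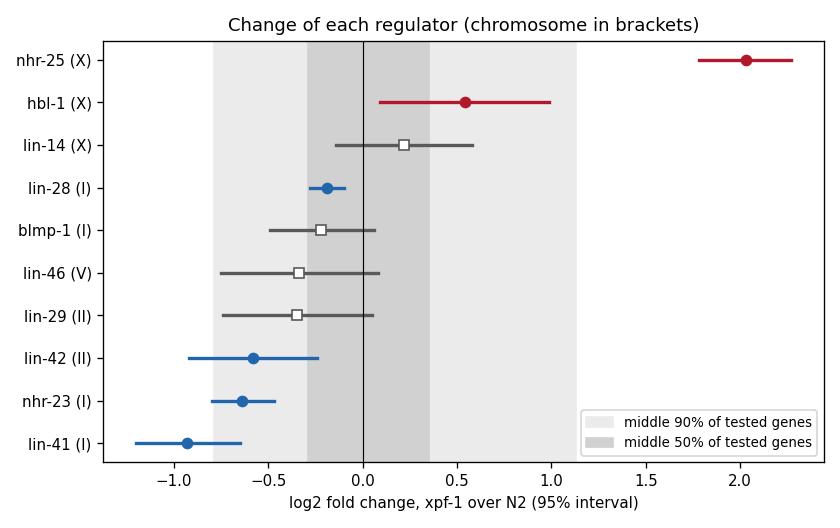
Log2 fold change of each regulator, xpf-1 over N2, with its 95% interval; filled circles passed edgeR's test (red higher, blue lower) and open squares did not. The grey bands hold the middle 50% (-0.29 to 0.35) and the middle 90% (-0.79 to 1.13) of all tested genes, and only nhr-25 and lin-41 lie outside the wider band.

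The 3 members on chromosome X, nhr-25, hbl-1 and lin-14, all had log2 folds above 0, from 0.22 to 2.03. The 7 on autosomes all had log2 folds below 0, from -0.93 to -0.19. Over all tested genes the chromosomes differed in the same sense. On X 44.1% of 2033 genes were called higher and 11.8% lower, with a median log2 fold of 0.23. On the autosomes 27.8% of 12201 genes were called higher and 32.6% lower, with a median of -0.01. The split of the members was noticed after their values were seen and was not tested.

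Levels between genes were compared per kilobase of deposited gene length. In N2 the order was lin-28 at 146 ± 4.55 CPM per kb, then lin-41 at 11.1 ± 1.22 and nhr-23 at 6.41 ± 0.647 (SD, n = 6). The 6 genes from lin-46 at 1.78 ± 0.444, through lin-14, blmp-1, nhr-25 and lin-29, to lin-42 at 0.911 ± 0.113 followed, and neighbours in that order differed by less than the sum of their SDs. The lowest was hbl-1 at 0.344 ± 0.0915 CPM per kb. In the mutant lin-28 at 128 ± 2.83 and lin-41 at 5.82 ± 1.31 still led, and nhr-25 at 4.84 ± 0.4402 moved from the seventh place to the third. It stood within the SDs of lin-41 there. With exon lengths of the current annotation it came after nhr-23 in the mutant, at 4.84 against 4.91 CPM per kb. With that annotation, whose exon length is longer, lin-14 fell from 1.51 to 0.792 CPM per kb in N2, so its place in the order rests on the gene model.

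**Figure D4:**
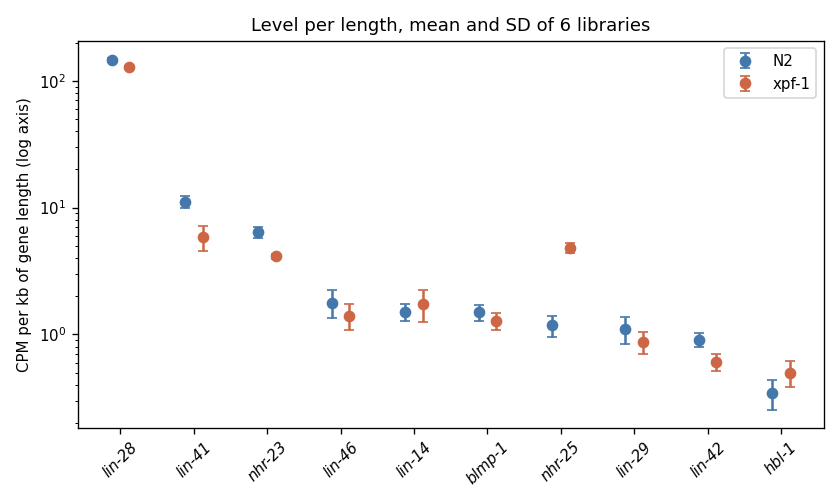
Mean level of each regulator per kilobase of deposited gene length in N2 and xpf-1, on a logarithmic axis, with whiskers of 1 SD over 6 libraries. From lin-28 to hbl-1 the N2 means run from 146 to 0.344 CPM per kb, and nhr-25 is the gene that leaves its place in the N2 order most.

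Partners of the heterochronic pathway were mostly higher in the mutant. The list held microRNA machinery, cofactors and the steroid receptor daf-12, which itself did not pass (log2 fold 0.09, edgeR adjusted p 0.486). Of 27 genes 25 were in the table and 21 had enough reads, of which 15 rose, 0 fell and 6 did not pass. Their median log2 fold was 0.37, beside 0.03 for all tested genes, of which 30.1% were called higher and 29.6% lower. The Argonaute gene alg-1, which loads microRNAs, rose from 25.7 ± 3.05 to 40.7 ± 4.52 CPM (log2 fold 0.66 ± 0.08 SE, edgeR adjusted p 2.09e-08). Its GW182-type partners ain-1 and ain-2, which silence the bound mRNAs, rose by 0.57 ± 0.06 and 0.43 ± 0.05 on the log2 scale. Both alg-1 and ain-1 lie on chromosome X, where 44.1% of all tested genes were called higher. The leucine-rich repeat gene pan-1, needed for molting, rose from 45.8 ± 3.11 to 72.8 ± 3.796 CPM. After correction for a trend with gene length, 11 rose and 1 fell. The microRNA genes lin-4 and mir-84 had 0 reads in all 12 libraries, which allows up to 0.0122 CPM over the pooled libraries, and let-7 and mir-241 were too low to test. Libraries made from mRNA do not measure mature microRNAs, so these counts say nothing of them.

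Most of the tested molting factors, which include effectors of molting and further transcription factors, rose as well. Of 33 genes 31 were tested, and 20 rose, 3 fell and 8 did not pass. Their median log2 fold was 0.46, beside 0.03 for all tested genes, of which 30.1% were called higher and 29.6% lower. The gene acn-1, related to angiotensin-converting enzyme and needed for molting, rose from 1.58 ± 0.608 to 9.76 ± 1.14 CPM (log2 fold 2.64 ± 0.17 SE). The Patched-related gene ptr-23 rose from 19.97 ± 2.24 to 45.3 ± 3.04 CPM. The 2 with the smallest adjusted p were fbn-1 and noah-2, which code for proteins of the apical matrix and rose by 2.31 ± 0.09 and 2.37 ± 0.12 on the log2 scale. The fallen genes, named after their values were seen, were the peroxidase gene mlt-7, at 11.2 ± 0.485 CPM in N2 and 7.24 ± 1.03 in the mutant, with sec-23 and let-767. The list and the members share no gene, but pan-1 and myrf-1 stand in the lists of both molting factors and heterochronic partners.

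Genes on the LIN-41 and LIN-29 side of the pathway were mostly near silence. Of 8 such genes 5 were too low to test, among them the male tail gene dmd-3 and the cuticle genes col-7, bli-1, bli-2 and rol-6. The adult collagen gene col-19, a target of LIN-29, was at 254 ± 19.4 CPM in N2 and 205 ± 14.5 in the mutant (log2 fold -0.31 ± 0.05 SE, edgeR adjusted p 6.72e-06). Also counted among the heterochronic partners is mab-10, the LIN-29 cofactor gene. It stood at 4.33 ± 0.545 and 4.48 ± 0.946 CPM and did not pass (edgeR adjusted p 0.806). Nor did the male tail gene mab-3, at 1.06 ± 0.267 and 0.901 ± 0.2404 CPM (adjusted p 0.494). These 2 genes, and those too low to test, were named after their values were seen.

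Markers of the tissues in which the regulators act moved in both directions. Of 15 epidermis markers 11 were tested, of which 6 rose, 3 fell and 2 did not pass. Their summed level was 278 to 318 CPM in N2 and 351 to 402 CPM in the mutant, without overlap, and 351 to 374 CPM there without replicate 1. Much of the rise of the sum, from a mean of 302 to 371 CPM, was that of vab-10. This gene went from 73.9 ± 8.11 to 129 ± 27.7 CPM, and the sum without it was not formed. The epidermal GATA factor gene elt-1 rose from 23.1 ± 2.47 to 51.04 ± 3.78 CPM and the seam cell gene ceh-16 from 4.71 ± 0.783 to 10.8 ± 1.19 CPM. The genes dpy-7, che-14 and dpy-10 rose by 4.13, 1.27 and 0.65 on the log2 scale, with dpy-7 at only 0.0583 CPM in N2. Other genes of the seam cells and the epidermis fell. The GATA factor gene egl-18 fell from 76.1 ± 4.51 to 64.9 ± 1.91 CPM (log2 fold -0.23 ± 0.05 SE, edgeR adjusted p 0.000337) and the epidermal zinc finger gene lin-26 by 0.30 on the log2 scale (adjusted p 0.000263). The Runx gene rnt-1 fell by 0.54 on the log2 scale (adjusted p 0.00897). The related GATA factor genes elt-6 and elt-3 did not pass, with log2 folds of -0.08 and 0.01. The markers dpy-5, bro-1, nhr-73 and grd-10 were too low to test. These genes, apart from elt-1 and ceh-16, were named after their values were seen. Of 18 embryo markers 12 were tested, 3 higher and 4 lower, and their sums overlapped, at 144 to 157 CPM in N2 and 146 to 158 in the mutant. The overlap of the sums depends on hch-1, the gene of the hatching protease, which rose by 2.99 ± 0.10 on the log2 scale, from 3.68 ± 0.478 to 29.3 ± 3.35 CPM. Without hch-1, left out after the values were seen, the sums were 146 ± 4.06 CPM in N2 and 122 ± 1.75 in the mutant (SD, n = 6 each). All 6 mutant libraries then lay below the lowest N2 library. The early muscle lineage gene ceh-51 fell from 16.2 ± 0.878 to 8.54 ± 1.16 CPM, and tbx-37, tbx-38 and pes-10, named after their values were seen, fell by 0.69, 0.40 and 0.68 on the log2 scale. The other markers called higher, hlh-1 and vet-6, likewise named after their values were seen, rose by 0.95 and 0.14. Of 12 neuron markers 5 rose and 1 fell, with sums of 392 to 427 and 415 to 443 CPM. The list of 10 body wall muscle markers had 3 higher and 7 lower, with sums of 849 to 1010.4 and 668 to 761 CPM. The gene hlh-1 is counted as higher both there and among the embryo markers. Of 9 intestine markers 3 rose and 4 fell, with sums of 1127 to 1302 CPM in N2 and 810.2 to 1253 in the mutant. Without xpf-1 replicate 1, the highest mutant library, the mutant sums were 810.2 to 977 CPM, all below the N2 range. Most of each sum was that of asp-1 and cpr-1, named after their values were seen, which both fell. Their means were 509.7 and 507 CPM in N2 and 411 and 353 CPM in the mutant. The genes ges-1, ifb-2 and act-5 rose, and the median log2 fold of the list was -0.04. Apart from those named here as having 0 reads, every listed gene in the table had a read in at least 1 library. The part of these tissues in the changes of the regulators was not tested.

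**Figure D5:**
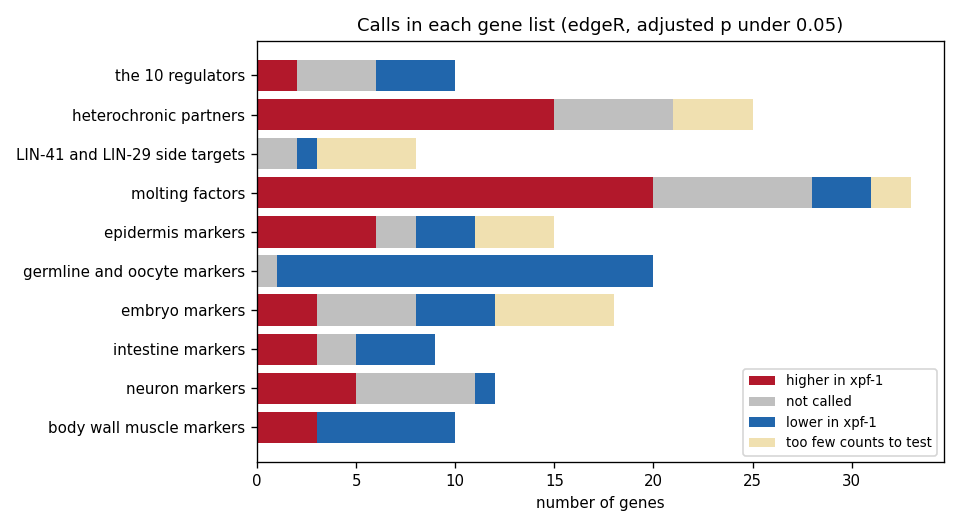
Number of genes in each list that were called higher (red), called lower (blue), not called (grey) or too low in counts to test (pale), by edgeR at an adjusted p of 0.05. Of all tested genes 30.1% were called higher and 29.6% lower. Heterochronic partners (15 higher, 0 lower) and molting factors (20 higher, 3 lower) contrast with the germline and oocyte markers (0 higher, 19 lower), while the 10 regulators split into 2 higher and 4 lower.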

How the data were processed

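The tools named, per the submitters' processing notes, are featureCounts 1.5.0-p3, HISAT2 2.1.0 and CASAVA, and the build is WBcel235. The sources used here name neither the strand setting nor the annotation release. The authors deposited raw read counts per gene, a gene length, and, per the file headers, a log2 fold change and an adjusted p-value of xpf over N2 from a tool not named there. A further 26 value columns were not used. Current gene models were those of an annotation of the same build.

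The main test was that of edgeR 4.0.16 (R 4.3.3) on the counts: filterByExpr, TMM factors and the robust quasi-likelihood test of 6 xpf-1 against 6 N2 libraries without covariates, adjusted by Benjamini-Hochberg over 14248 genes at 0.05. CPM are counts over TMM-scaled totals. The test was tried on simulated data with known changes. The biological coefficient of variation was 9.62%, and intervals for counts of 0 (3 reads) cover counting error only. Members and lists were chosen with earlier results of these data known. List genes were matched by deposited name or current symbol, and 3 names of 149 were not matched. Genes named by rule are the members, xpf-1 and, with at least 1 CPM, those of smallest adjusted p in each list. These were up to 4 per pathway list and 2 per marker list. Of them cpg-2, oma-2, mtl-2, unc-10, unc-64, mlc-1 and mlc-2 are not described above. Alternatives were DESeq2 1.42.0, limma-voom (limma 3.58.1), other scalings and filters, a replicate block, removal of the length trend, a threshold of 0.01, subsets of libraries, and N2 replicate 6 as a mutant. Exon lengths of the current annotation, list sums and marker ratios without xpf-1 replicate 1, and the embryo sum without hch-1 were added after the data were seen. All members passed the filter, so the exact permutation test planned for untested members was not needed. No sequences were used.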

Additional observations from a re-analysis of the deposited data

Results flagged for a closer look

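In 6 of 64 groups of 6 libraries checked over 32 named genes, 1 library stood apart from the others by Dixon's gap test at its 95% critical value, where chance alone flags about 1 group in 20. In 5 of the 6 it was xpf-1 replicate 1, always as the highest. It had 13.4 CPM of nhr-23 against 12.02 to 12.5 in the other mutant libraries, and 39.8 CPM of lin-41 against 23.5 to 28.7. It had 233 CPM of col-19 against 194 to 206, 41.4 CPM of fbn-1 against 30.8 to 34.4, and 22.8 CPM of ges-1, a gut esterase gene, against 16.9 to 18.5. The remaining one was ptr-23 in N2 replicate 2, at 15.5 CPM against 20.1 to 21.5. Without xpf-1 replicate 1 the log2 folds of these genes were -0.65 for nhr-23, -1.05 for lin-41, -0.34 for col-19, 2.25 for fbn-1 and 0.37 for ges-1. Without N2 replicate 2 that of ptr-23 was 1.12. Each still passed edgeR's test. For nhr-23 the SD of all mutant libraries was 4.08% of the mean, below the 6.19% that counting alone would give.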

How the results depend on the processing

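The count of regulators called higher fell from 2 to 1, through the loss of hbl-1, in DESeq2 (adjusted p 0.0571), without a low-count filter (0.075), with the replicate block (0.0518), with the length trend removed (0.184) and at a threshold of 0.01. It was also 1 with a filter at 5 CPM in 6 libraries, under which hbl-1 was not tested, and 1 to 2 with 1 library left out. In replicates 1 to 3 alone 2 were called lower instead of 4, and the log2 fold of blmp-1 turned to 0.04 (adjusted p 0.871). In that subset lin-14 joined the regulators called higher, at 0.59 (edgeR adjusted p 0.0336). With the length trend removed blmp-1 joined those called lower, at -0.35 (edgeR adjusted p 0.0206). Fewer libraries and fewer tested genes follow from how those settings are made, and otherwise the cause was not tested. The calls of nhr-25, nhr-23 and lin-41 held under all 24 alternatives. Replicate numbers did not pair the libraries: the correlation of same-numbered libraries was 0 to 0.12, and with the block 8536 genes were called instead of 8509. With N2 replicate 6 as a mutant 6652 genes were called, and the same number of regulators, 6. The 6 members under 10 CPM in both groups held 16 to 133 reads per library. Such counts limit what could be seen, as the width of their intervals shows.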
